A study of Mus musculus with 6 samples.

Results

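Brca1, the caveolin genes Cav1 and Cav2 and the metallothionein genes Mt1 and Mt2 were followed in mouse mammary epithelial cells that lacked the histone demethylase JARID1B. These 5 genes were chosen by symbol among the 19057 genes named on an Illumina mouse bead array, and 7 of its 45281 probes carried their names. Mt2 is also an older name of the melatonin receptor gene Mtnr1b, whose 2 probes were detected on no array and were not counted. The study cultured mammary epithelial cells in 3 pairs, lettered A, B and C, each with 1 Jarid1b-/- culture (KO) and 1 Jarid1b+/+ culture (WT), and total RNA was taken at an early passage before confluence. The KO and WT groups therefore hold 3 arrays each. Jarid1b is the older symbol of Kdm5b. Each culture has a sample ID of its own in the labels, but what a letter stands for, the kind of null allele, the age of the mice and whether every culture came from another animal are not stated there. The p-values therefore reflect the spread between these 6 cultures, part of which may be technical.

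JARID1B demethylates lysine 4 of histone H3, a position whose methylation marks the start sites of active genes. In human breast cancer cell lines the protein is abundant and has been described as a repressor of BRCA1, CAV1, HOXA5, SFN and several metallothionein genes. BRCA1 repairs broken DNA by homologous recombination together with its partner BARD1, caveolins form the coat of flask-shaped pits of the plasma membrane, and metallothioneins are small cysteine-rich proteins that bind zinc and copper. The comparison asks whether the mouse genes have higher signals when the demethylase is missing.

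The targeted gene was checked first. Kdm5b at its brightest probe read 4.42, 4.42 and 4.34 in KO arrays A, B and C, against 7.07, 6.89 and 6.60 in WT arrays A, B and C (normalised log2 intensity). It was not detected on any KO array and was at least 4.94-fold lower there (log2 difference -2.46, SE 0.18, limma adjusted p = 0.0122). The call was lost without KO replicate A, B or C and without WT replicate A or B, with differences of -2.53 to -2.34 and limma adjusted p of 0.0636 to 0.186. Dimmer Kdm5b probes were lower in KO as well, at log2 differences of -2.35 (SE 0.18) and -0.90 (SE 0.17). Each was detected on 3 WT arrays and 0 KO arrays. Which part of the gene was deleted, and the position of each probe in it, are not known here. The loss of signal therefore holds for the stretches of transcript that the probes read. Per array 17033 to 18686 probes were detected, meaning a detection p under 0.05 against the array's negative control beads. All 6 arrays were on 1 slide. The first principal component (56.1% of the variance) separated pair C from pairs A and B, and KO array A stood alone on the second (20.1%). Of 10 basal and luminal marker genes of mammary epithelium, 9 were detected on all 6 arrays, while Epcam, read by 1 probe, was detected on none.

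None of the 5 genes was called different between KO and WT cultures. Cav1 and the brighter Brca1 probe were higher in KO in every pair, Cav2 was lower in KO in every pair, and Mt1 and Mt2 had no common direction over the pairs. Brca1 was at or below the limit of detection, and the second Cav2 probe was detected on no array. Thus 4 of the 7 probes and 4 of the 5 genes entered the test. Of those 4 genes, 0 had a limma adjusted p under 0.05, where the share over all 10419 genes tested was 0.0288% (3 genes, namely Kdm5b, Csrp1 and Cops8). Of all genes tested, 0.0192% were called higher in KO. At an unadjusted p under 0.05 the count was also 0 of 4, against 3.24% of all genes (1.49% higher and 1.76% lower in KO). Groups without overlap were found for 0 of 4, against 8.27% of all genes (3.11% higher and 5.16% lower in KO). The median log2 difference of all genes was -0.01, with the 5th and 95th percentiles at -0.42 and 0.51. Adjusted p was 1 in limma for each of the 4 genes. That fit did not use the pair letter, so its SE includes the spread between pairs. With the letter as a replicate block, limma unadjusted p was 0.0816 for Cav1, 0.0275 for Cav2, 0.357 for Mt1 and 0.181 for Mt2. The adjusted p was 0.599, 0.536, 0.773 and 0.673 in that limma fit, where 904 of 10419 genes had an unadjusted p under 0.05.

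**Figure D1:**
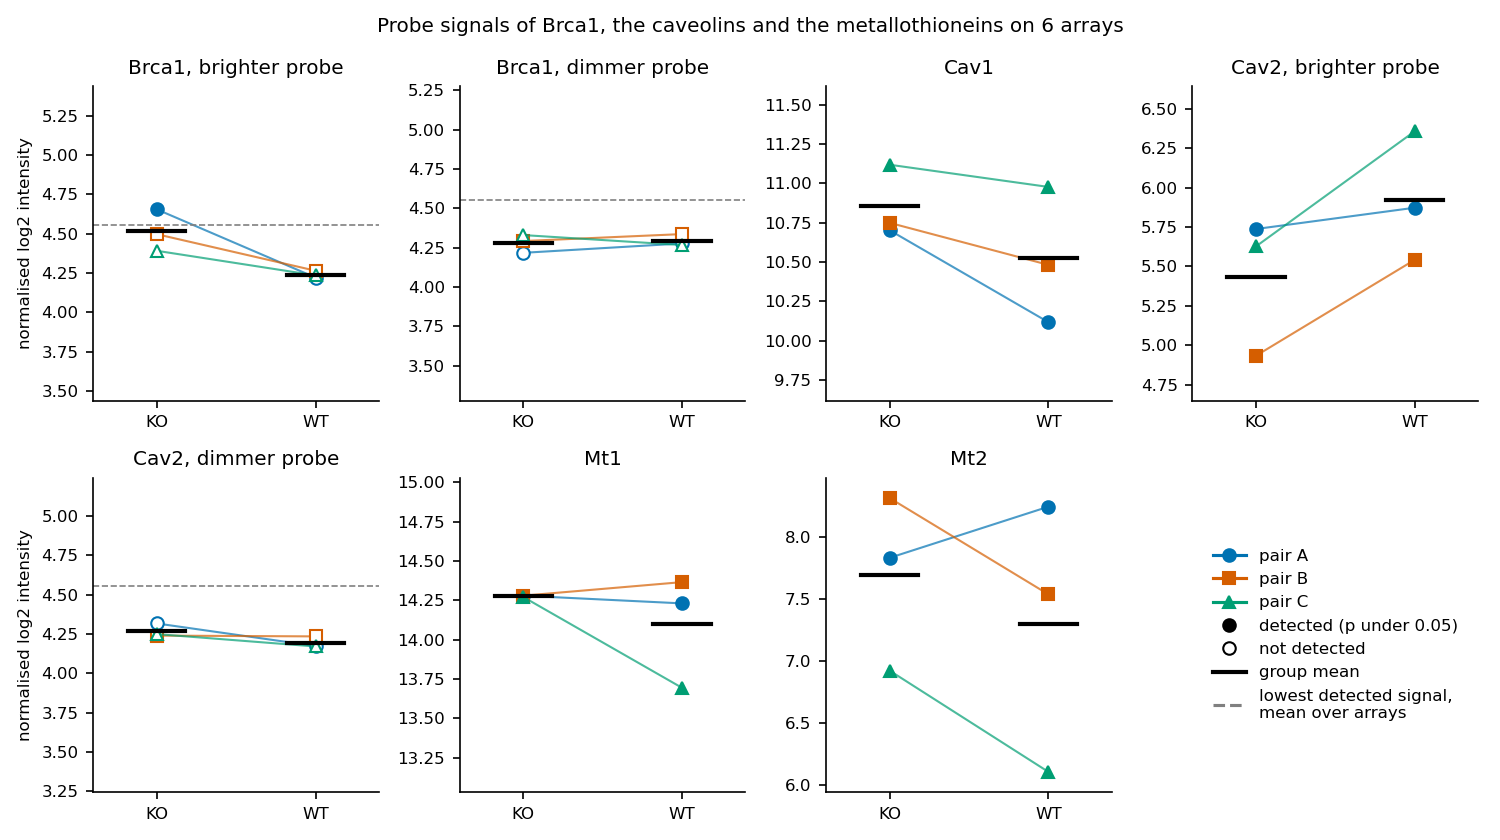
Normalised log2 intensity (y axis) of the 7 probes in KO and WT cultures (x axis), with a line joining the 2 cultures of a pair, filled points for detected values, open points for values not detected, black bars for group means and a dashed line at the lowest detected signal, averaged over the arrays. Only KO array A is above that line for Brca1, Cav1 lies between 10.12 and 11.12, and the 3 KO values of Mt1 lie on top of each other at 14.27 to 14.28.

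Brca1 could hardly be measured in these cultures. Its brighter probe read 4.65, 4.50 and 4.39 in KO arrays A, B and C, against 4.22, 4.26 and 4.23 in WT arrays A, B and C (normalised log2 intensity). The raw intensities were 107.2, 97.8 and 97.1 in KO and 95.8, 97.0 and 93.7 in WT, close to the raw array medians of 95.3 to 100.7. The KO values lay above the WT values without overlap, but the signal was detected on 1 KO array, A, and on no WT array. The detection value of that array was 0.0246, against 0.0962 and 0.137 on KO arrays B and C and 0.673, 0.482 and 0.614 on the WT arrays.

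Because the lowest detected signals per array lay at 4.49 to 4.60, the means of 4.51 ± 0.13 in KO and 4.24 ± 0.02 in WT (SD, n = 3 each) are not levels of the transcript. Among the 25952 probes detected on at most 1 array, 4.97% were likewise higher in KO without overlap. Of the 2868 probes detected on a single array, that array was a KO array for 61.1%. It was KO array C for 32.0%, KO array A for 13.18% and WT array A for 13.25%. Without a detection filter the log2 difference was 0.27 (SE 0.07), with limma unadjusted p = 0.013 and adjusted p = 0.875 over 19057 genes. In that limma fit 956 of the 19057 genes had an unadjusted p under 0.05. The second Brca1 probe was detected on no array, and its means were 4.28 ± 0.06 in KO and 4.29 ± 0.04 in WT (SD, n = 3 each). The second probe thus gives no direction to set beside the first, and whether Brca1 differed was not detectable at this signal over background.

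Next to Brca1 on chromosome 11 lies Nbr1, an autophagy receptor gene, which was measurable. It read 5.38 ± 0.18 in KO and 5.50 ± 0.38 in WT, a log2 difference of -0.12 (SE 0.24). This difference was smaller than the spread between the WT replicates, and adjusted p was 1 in limma.

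Most partners of the BRCA1 protein were also dim, but Babam1 and Babam2 were not. Babam1 read 8.47 in KO and 8.22 in WT, and Babam2 read 7.20 in both groups. Of 12 listed genes 10 had a probe and 7 were tested, 5 with a higher and 2 with a lower mean in KO, where 48.2% of all genes tested had a higher mean. The median log2 difference was 0.12, and 0 passed the test over all genes. Omission of KO array A made that median -0.026, of KO array B 0.24 and of WT array C 0.063. Brca2, which acts in repair of breaks by homologous recombination, read 5.25 ± 0.11 in KO and 4.76 ± 0.30 in WT (SD, n = 3 each), and the log2 difference was 0.49 (SE 0.20, limma unadjusted p = 0.0443, adjusted p = 1). Its KO values did not overlap the WT values, and by pair it differed by 0.86, 0.47 and 0.14 in A, B and C. Uimc1, a gene of the complex that brings BRCA1 to ubiquitin at breaks, had KO values below the WT values without overlap, at -0.35 (SE 0.17, limma unadjusted p = 0.0779). Uimc1 read 4.51 ± 0.18 in KO and 4.86 ± 0.09 in WT (SD, n = 3 each). It was detected on 2 of 3 KO arrays, and its KO mean lay at the limit of detection, so the size of this difference is uncertain. Bard1, whose protein forms the ubiquitin ligase with BRCA1, read 4.77, 4.47 and 4.48 in KO arrays A, B and C, against 4.43, 4.33 and 4.38 in WT, and was detected only on KO array A. Palb2, which bridges BRCA1 and BRCA2, read 5.14, 4.21 and 4.38 in KO, against 4.17, 4.40 and 4.25 in WT, and was likewise detected only on KO array A.

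The wider set of genes for repair by recombination had 12 tested members of 22 listed. Of these, 9 had a higher and 3 a lower mean in KO, the median was 0.07 (0.052 to 0.21 on leaving out 1 array, highest without KO replicate B or WT replicate C), and 0 had an unadjusted or adjusted p under 0.05 in limma. The members with the smallest p were Fancd2 of the Fanconi anaemia pathway, at 0.43 (SE 0.29, limma unadjusted p = 0.176), and the DNA translocase gene Rad54l, at 0.86 (SE 0.58, limma unadjusted p = 0.186). By pair Rad54l differed by 2.50, -0.45 and 0.52 in A, B and C, and Fancd2 by 1.05, -0.12 and 0.36. Fancd2 was dim, at 4.90 ± 0.55 in KO and 4.47 ± 0.15 in WT (SD, n = 3 each). It was detected on 2 KO arrays and 1 WT array. The checkpoint kinase gene Chek1 was not tested and was detected only on KO array A. Over the whole platform, 13.2% of the 2868 probes detected on a single array were detected on KO array A alone.

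Proliferation genes, which are dim in cells that do not divide, were read beside them. All 17 tested members of 22 listed had a higher mean in KO, with a median of 0.80. Omission of KO array A made it 0.46, of KO array B 1.48 and of KO array C 0.49. Pair A had a median of 2.09, pair B one of -0.30 and pair C one of 0.64, where the BRCA1 partners had 0.31, -0.14 and 0.13. Summed proliferation signal ranged from 1715 to 5937 in KO and from 1462 to 3530 in WT (linear normalised intensity), highest on KO array A. Mcm3, a subunit gene of the replicative helicase, differed by 0.79 (SE 0.31, limma unadjusted p = 0.0384), and it was the only member at an unadjusted p under 0.05. Ccna2, Ccnb2 and Bub1 were detected on no array, and the list had 0 members with an adjusted p under 0.05. The part of proliferation in the Brca1, Brca2 and repair gene values was not tested.

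**Figure D2:**
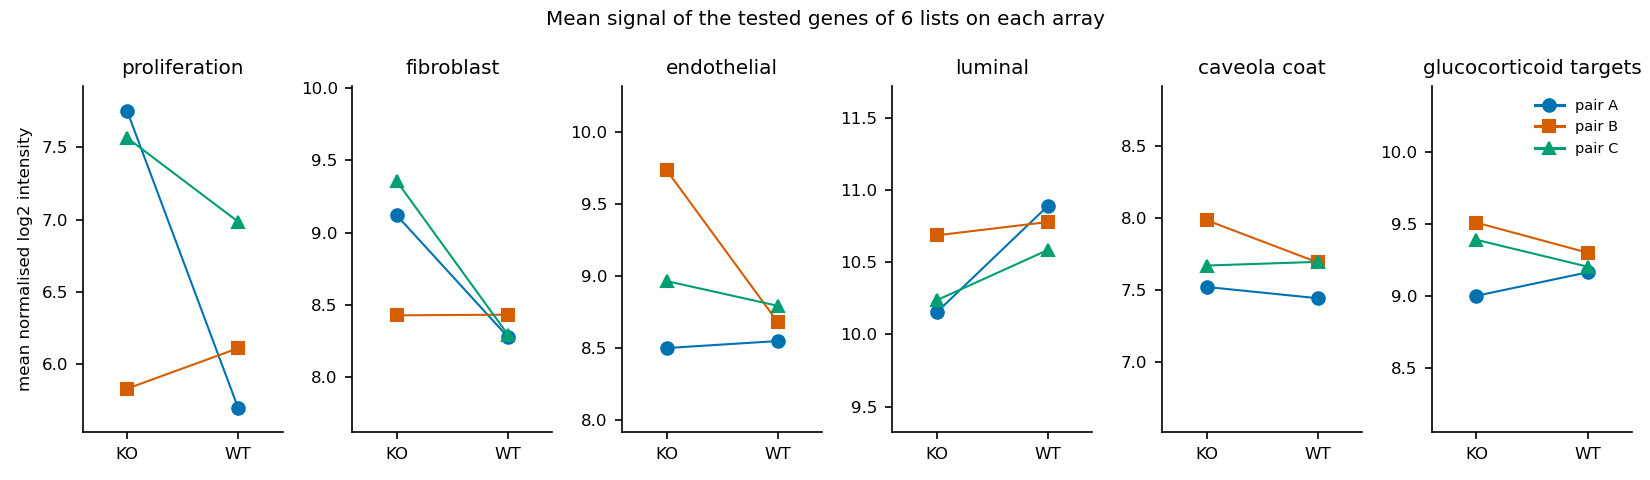
Mean normalised log2 intensity over the tested genes of 6 lists (y axis) in KO and WT cultures (x axis), with a line joining the 2 cultures of a pair. Proliferation genes are highest on KO array A, fibroblast genes are highest on KO arrays A and C, and endothelial genes are highest on KO array B.

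The caveolins, whose genes lie next to each other on chromosome 6, had differences of opposite sign, neither of them called. Cav1, the main structural protein of caveolae, read 10.70, 10.75 and 11.12 in KO arrays A, B and C, against 10.12, 10.48 and 10.98 in WT arrays A, B and C (normalised log2 intensity). The groups overlapped, since WT array C lay above KO arrays A and B, but within each pair the KO culture was the higher one. Cav1 averaged 10.86 ± 0.23 in KO and 10.53 ± 0.43 in WT (SD, n = 3 each), and the log2 difference was 0.33 (SE 0.26, 95% interval -0.28 to 0.94, limma unadjusted p = 0.239, adjusted p = 1), or 1.26-fold.

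By pair Cav1 differed by 0.58, 0.27 and 0.14 in A, B and C. A higher KO value in all 3 pairs was found for 13.0% of all genes tested. In raw intensity the direction of pair B was the opposite, with 1414 in KO array B and 1516 in WT array B. The difference was 0.13 without WT replicate A and 0.56 without WT replicate C (limma unadjusted p = 0.047, adjusted p = 0.768). The interval includes no difference as well as an increase of 0.94 on the log2 scale.

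Cav2, which assembles with CAV1 into the coat, read 5.74, 4.93 and 5.63 in KO arrays A, B and C, against 5.87, 5.54 and 6.36 in WT arrays A, B and C. The groups overlapped, with WT array B below KO arrays A and C, and KO array B was the lowest of all. The means were 5.43 ± 0.44 in KO and 5.92 ± 0.41 in WT (SD, n = 3 each), and the log2 difference was -0.49 (SE 0.30, 95% interval -1.19 to 0.21, limma unadjusted p = 0.142, adjusted p = 1). By pair Cav2 differed by -0.14, -0.61 and -0.73, and 18.4% of all genes tested were lower in KO in every pair.

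Signals of this Cav2 probe were low, with raw intensities of 137.5, 103.5 and 131.7 in KO and 142.9, 126.7 and 165.2 in WT, so the size depended on the treatment of background. No background correction gave -0.19, and the authors' deposited value table gave -0.17. The value was -0.24 without KO array B, -0.27 without WT array C and -0.17 with array weights. The second Cav2 probe was detected on no array, with means of 4.27 in KO and 4.19 in WT.

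The neighbour of Cav1 on its other side is Met, the receptor gene for hepatocyte growth factor, which read 4.67 ± 0.52 in KO and 5.07 ± 0.29 in WT (SD, n = 3 each), a difference of -0.39 (SE 0.29, limma adjusted p = 1). Tes, the neighbour of Cav2, was not analysed here.

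Other caveola genes had no common direction. Of 8 listed genes 6 were tested, 4 with a higher and 2 with a lower mean in KO, with a median of 0.17. The median was -0.0030 without WT replicate A. None had an adjusted p under 0.05, and 0 had an unadjusted p under 0.05 in limma. Cavin1, which is needed to form the coat, read 8.42 ± 0.26 in KO and 7.96 ± 0.30 in WT (SD, n = 3 each), and the log2 difference was 0.46 (SE 0.23, limma unadjusted p = 0.0826, adjusted p = 1), with pair differences of 0.50 for A, 0.65 for B and 0.21 for C. Cavin2 differed by 0.27 (SE 0.40) and Cavin3 by 0.20 (SE 0.19). Ehd2, an ATPase gene of the caveola neck, differed by 0.14 (SE 0.24), while the membrane-bending genes Pacsin2 and Pacsin3 differed by -0.18 (SE 0.21) and -0.20 (SE 0.31). Cav3, the muscle caveolin gene, was detected on no array, and Cavin4 was detected on 1 WT array.

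Caveolae are abundant in fibroblasts, endothelial cells and adipocytes, so markers of these cells were read beside the caveolins. All 14 tested fibroblast genes of 18 listed had a higher mean in KO, with a median of 0.74 and 8 at an unadjusted p under 0.05, where 3.24% of all genes tested passed (1.49% higher in KO), and 0 at an adjusted p under 0.05. Among the 8 were Col6a2 at 1.25 (SE 0.31) and Col5a1 at 0.84 (SE 0.23), which encode collagen chains. Pair A had a median of 0.99, pair B one of 0.02 and pair C one of 1.0, and their summed signal ranged from 11746 to 19690 in KO and from 10949 to 12644 in WT. Postn was detected on no array. All 9 tested endothelial genes of 10 listed had a higher mean in KO, with a median of 0.36, which omission of KO array A made 0.66 and of KO array B 0.040. Pair A had a median of -0.07, pair B one of 1.0 and pair C one of 0.22. Their summed signal ranged from 4644 to 10682 in KO and from 4733 to 6293 in WT, and KO array B was the highest.

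Of 8 adipocyte genes 3 were tested, with a median of -0.35 and summed signals of 178 to 325 in KO and 212 to 454 in WT. Fabp4, Plin1, Cidec, Cd36 and Retn were detected on no array. All 9 tested luminal genes of 11 listed had a lower mean in KO, with a median of -0.31, among them Rab25, a vesicle transport gene, at -0.43 (limma unadjusted p = 0.0475). The 9 tested basal genes had a median of -0.06, with 4 higher and 5 lower, and of 0.26 without WT replicate C. Of 6 macrophage genes 4 were tested, 3 higher and 1 lower, with a median of 0.08, and Ptprc, the pan-leukocyte gene, was detected on no array. In bulk cultures fewer cells of a type and less RNA per cell cannot be told apart, and the part of these cell types in the caveolin values was not tested.

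**Figure D3:**
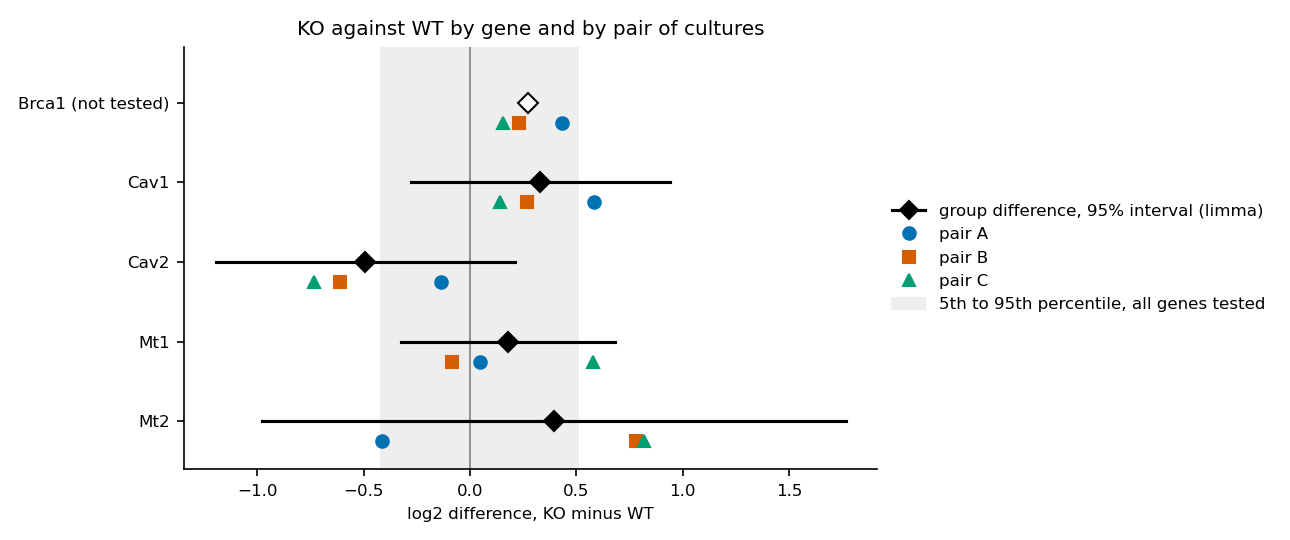
Log2 difference of KO minus WT (x axis) for each gene (y axis), with the group difference and its 95% interval from limma in black, the differences within pairs A, B and C in colour and the 5th to 95th percentile of all genes in grey. The intervals of Cav1, Cav2, Mt1 and Mt2, from the fit without the pair letter, include 0. Brca1 has no interval because no probe of it was tested.

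Metallothionein genes Mt1 and Mt2 lie beside each other on chromosome 8, in a cluster with Mt3 and Mt4. Zinc, glucocorticoids and oxidative stress are known to induce them, zinc through the factor MTF1, which binds short metal response elements. The promoter windows of the 2 genes are shown because their signals were both lowest on WT array C and because metal response elements are their best known control. Each window runs from 250 bases before to 50 bases after the start site, from RefSeq on GRCm38.p6, 5′ to 3′ on the plus strand. Mt1 lies at chr8:94178839-94179138 and Mt2 at chr8:94172368-94172667. Capitals mark matches to the core of the element, searched as TGCACNC and TGCGCNC on both strands.
Mt1: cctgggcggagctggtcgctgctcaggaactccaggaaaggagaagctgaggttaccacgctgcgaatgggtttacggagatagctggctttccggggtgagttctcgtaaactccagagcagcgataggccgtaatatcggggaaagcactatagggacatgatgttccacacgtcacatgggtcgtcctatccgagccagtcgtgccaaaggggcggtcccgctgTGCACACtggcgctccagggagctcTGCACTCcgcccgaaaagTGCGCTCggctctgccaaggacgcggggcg
Mt2: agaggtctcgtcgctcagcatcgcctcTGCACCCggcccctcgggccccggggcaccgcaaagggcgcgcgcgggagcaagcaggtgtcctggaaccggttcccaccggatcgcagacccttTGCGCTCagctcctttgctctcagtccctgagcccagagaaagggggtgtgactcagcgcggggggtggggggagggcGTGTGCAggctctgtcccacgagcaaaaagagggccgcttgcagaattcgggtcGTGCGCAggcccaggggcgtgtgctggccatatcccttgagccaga

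The Mt1 window held 3 matches, all on the strand of the gene, and the Mt2 window held 4, of which 2 were on the opposite strand. No match overlapped another. Of 32851 such windows of mouse genes, 25.7% held at least 1 match, 1.97% held at least 3 and 0.52% held at least 4. The windows of Mt3 and Mt4 held 1 match each, those of Brca1 and Cav2 held 0, and of the 2 start sites listed for Cav1 the one at the higher coordinate held 1. A match is a description of the letters and does not show binding. CG dinucleotides mark the kind of promoter where lysine 4 methylation is usual. They numbered 24 in the windows of Mt1 and of Mt2, 19 in that of Brca1 and 16 in that of Cav2. The windows of Cav1 held 13 and 16, that of Mt3 held 8 and that of Mt4 held 5. The median over all windows was 7. At least 24 were found in 20.0% of all windows, at least 19 in 28.1%, at least 16 in 33.0% and at least 13 in 37.9%.

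Mt1 was among the brightest probes on every array. It read 14.28, 14.28 and 14.27 in KO arrays A, B and C, against 14.23, 14.36 and 13.69 in WT arrays A, B and C (normalised log2 intensity). The KO values lay within the range of the WT values, and WT array C stood low. Quantile normalisation gives probes of the same rank the same value, and Mt1 ranked 7, 7 and 8 from the top on the KO arrays and 10, 2 and 52 on the WT arrays, so the KO standard deviation of 0.0047 reflects ranks.

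Raw Mt1 intensities were 20647, 17576 and 18198 in KO and 22440, 22550 and 12997 in WT. In those units the KO mean of 18807 was below the WT mean of 19329, while the normalised means were 14.28 in KO and 14.10 ± 0.35 (SD, n = 3) in WT. The log2 difference was 0.18 (SE 0.21, 95% interval -0.32 to 0.68, limma unadjusted p = 0.427, adjusted p = 1). The pair differences were 0.05 for A, -0.09 for B and 0.58 for C, so pair C carried the mean. Without WT replicate C it was -0.03, and with each array scaled to its median it was 0.02. The probe reached 62.8% to 97.5% of the brightest signal on its array, and no saturation flag is given in the sources used here.

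Mt2 varied over a wider range, with 7.84, 8.32 and 6.92 in KO arrays A, B and C, against 8.25, 7.54 and 6.11 in WT arrays A, B and C. Both arrays of pair C were the lowest of their group, and the groups overlapped. The means were 7.69 ± 0.71 in KO and 7.30 ± 1.09 in WT (SD, n = 3 each), and the log2 difference was 0.39 (SE 0.58, 95% interval -0.98 to 1.77, limma unadjusted p = 0.519, adjusted p = 1). By pair Mt2 differed by -0.41, 0.78 and 0.82 in A, B and C. Its direction was the opposite without WT replicate C, at -0.20, and the value was 0.86 without WT replicate A. Over the 6 arrays Mt1 and Mt2 had a Pearson correlation of 0.75, and Cav1 and Cav2 one of 0.06. These values are descriptions, since the 6 arrays share a normalisation and fall into pairs.

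Mt3, a metallothionein gene best known from neurons, had the largest difference of the cluster. It read 4.86, 6.62 and 5.74 in KO arrays A, B and C, against 4.92, 4.77 and 4.54 in WT arrays A, B and C. KO arrays B and C were above every WT array and KO array A was not. Its raw intensities were low, at 111.4, 150.1 and 136.2 in KO and 112.7, 108.2 and 102.2 in WT. The raw array medians were 95.3 to 100.7, so the WT values lay near the limit of detection. Without a detection filter the limma unadjusted p of Mt3 was 0.0804. The means were 5.74 ± 0.88 in KO and 4.75 ± 0.19 in WT (SD, n = 3 each), and the log2 difference was 0.99 (SE 0.42, limma unadjusted p = 0.0484, adjusted p = 1). Mt4, known from stratified epithelia, was detected on KO array A only. Nup93, the nuclear pore gene on the other side of Mt1, differed by 0.26 (SE 0.29).

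Genes that handle zinc and copper had no common direction, but their mean signal was higher on every KO array than on any WT array. Over the tested genes, Mt3 among them, it was 6.71, 6.73 and 6.69 on KO arrays A, B and C (normalised log2 intensity). On WT arrays A, B and C it was 6.63, 6.61 and 6.67. Summed signal ranged from 5064 to 5188 in KO and from 4472 to 5034 in WT. These list levels were not tested. Of 27 listed genes 22 were tested, 13 with a higher and 9 with a lower mean in KO, the median was 0.01 (-0.08 with each array scaled to its median), and only Mt3 had an unadjusted p under 0.05 in limma. Mtf1, the zinc sensor that induces metallothioneins, read 6.74 ± 0.64 in KO and 7.08 ± 0.32 in WT (SD, n = 3 each), a difference of -0.33 (SE 0.34). Slc30a1, a zinc exporter gene also induced by MTF1, differed by 0.07 (SE 0.22), with pair differences of -0.43 for A, 0.06 for B and 0.58 for C. The copper chaperone gene Atox1 differed by 0.32 (SE 0.21).

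Targets of the other inducers were read as well. The 7 oxidative stress genes had a median of 0.09 with 6 higher and 1 lower in KO, and that median was -0.16 without WT replicate C and -0.05 without KO replicate B. The 6 glucocorticoid targets had a median of 0.06 with 5 higher and 1 lower, and their median was -0.017 without KO replicate B and 0.17 without KO replicate A or WT replicate B. In both lists 0 had an unadjusted p under 0.05 and 0 an adjusted p under 0.05 in limma. Nqo1, a quinone reductase gene, differed by -0.63 (SE 0.39) and Slc7a11, the cystine transporter gene, by 0.38 (SE 0.30). The glucocorticoid-induced gene Tsc22d3 differed by 0.36 (SE 0.32) and Sgk1 by 0.11 (SE 0.20). Within pairs, Tsc22d3 differed by -0.04 for A, 0.30 for B and 0.83 for C. Sgk1 differed by -0.21 within pair A, -0.01 within pair B and 0.56 within pair C. The other glucocorticoid targets were mixed in pair C, with Dusp1 at 0.15, Fkbp5 at -0.17, Per1 at -0.09 and Zbtb16 at -0.16. The median of the glucocorticoid list was -0.27, 0.27 and 0.03 in pairs A, B and C. Its summed signal ranged from 13809 to 18176 in KO and from 13705 to 16335 in WT. The part of these inducers in the metallothionein values was not tested.

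Other genes described as JARID1B targets in human breast cancer cells were measurable in these mouse cultures. Hoxa5, a homeobox gene, read 6.19 ± 0.48 in KO and 5.89 ± 0.35 in WT (SD, n = 3 each), a difference of 0.30 (SE 0.30, limma unadjusted p = 0.347, adjusted p = 1). Sfn, which encodes the epithelial 14-3-3 sigma protein, read 9.79 ± 0.64 in KO and 10.07 ± 0.92 in WT, a difference of -0.28 (SE 0.51, limma unadjusted p = 0.597, adjusted p = 1). Both differences were smaller than the replicate SD of at least 1 group.

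**Figure D4:**
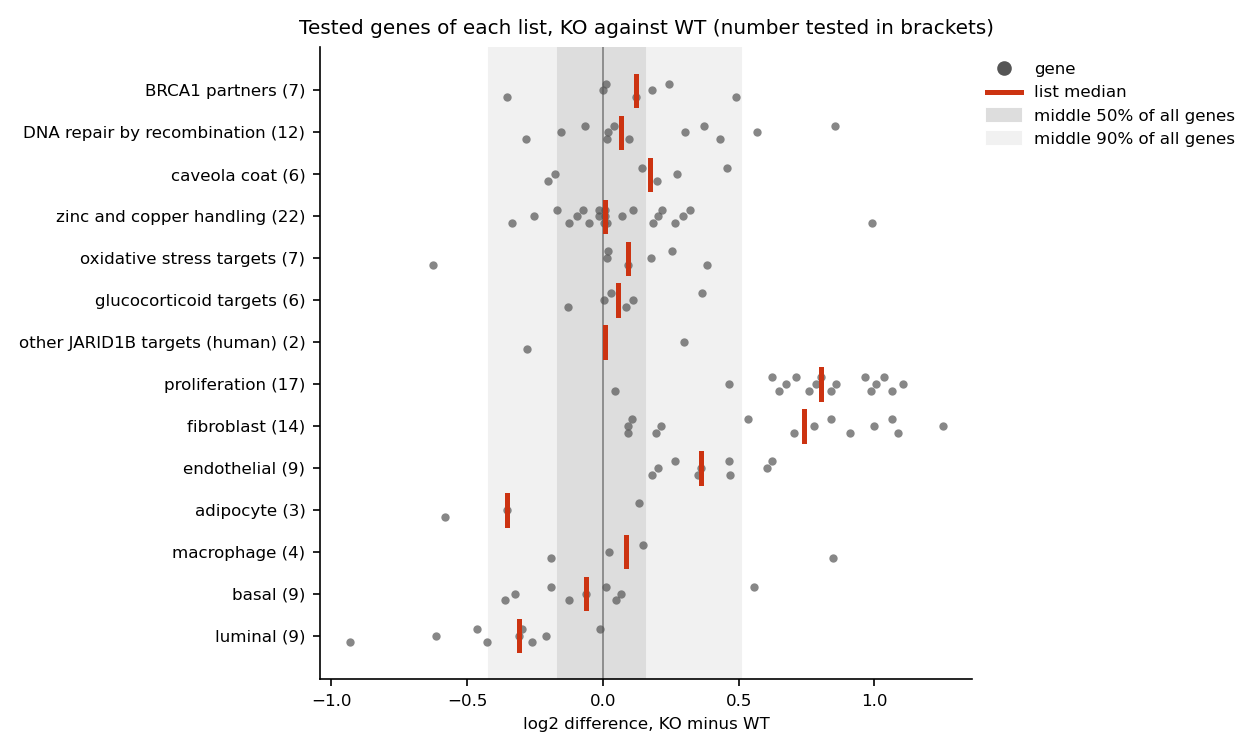
Log2 difference of KO minus WT (x axis) for the tested genes of each list (y axis, number tested in brackets), with the list median in red and the middle 50% and 90% of all genes in grey. The medians of BRCA1 partners, repair genes, metal handling, stress and glucocorticoid targets lie within the middle 50% of all genes. The caveola median of 0.17 lies just outside it. Proliferation, fibroblast and endothelial medians lie to the right, and luminal (-0.31) and adipocyte (-0.35) medians lie to the left.

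Genes whose signal followed each member most closely over the 6 arrays were found by Pearson correlation among the 10419 genes tested. Riken, Gm, LOC and accession-like symbols were left out of the ranking and of the counts. For Cav1 these were Pcnx4, Pls3 and Lman2 (0.99, 0.98 and 0.98), and 31 genes exceeded 0.95. For Cav2 they were Ankzf1, Mtfr1l and Bcap31 (each 0.99), with 16 genes above 0.95. Mt1 was followed by Elf4, Socs2 and Bzw1 (0.98, 0.98 and 0.97) among 13 such genes, and Mt2 by Rpl21, Scin and Zfp317 (0.99, 0.99 and 0.98) among 71. Neither caveolin was among the genes closest to the other, and neither metallothionein was among those closest to its neighbour. The arrays share normalisation and the shift of pair C, so these values describe the arrays and carry no test.

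**Figure D5:**
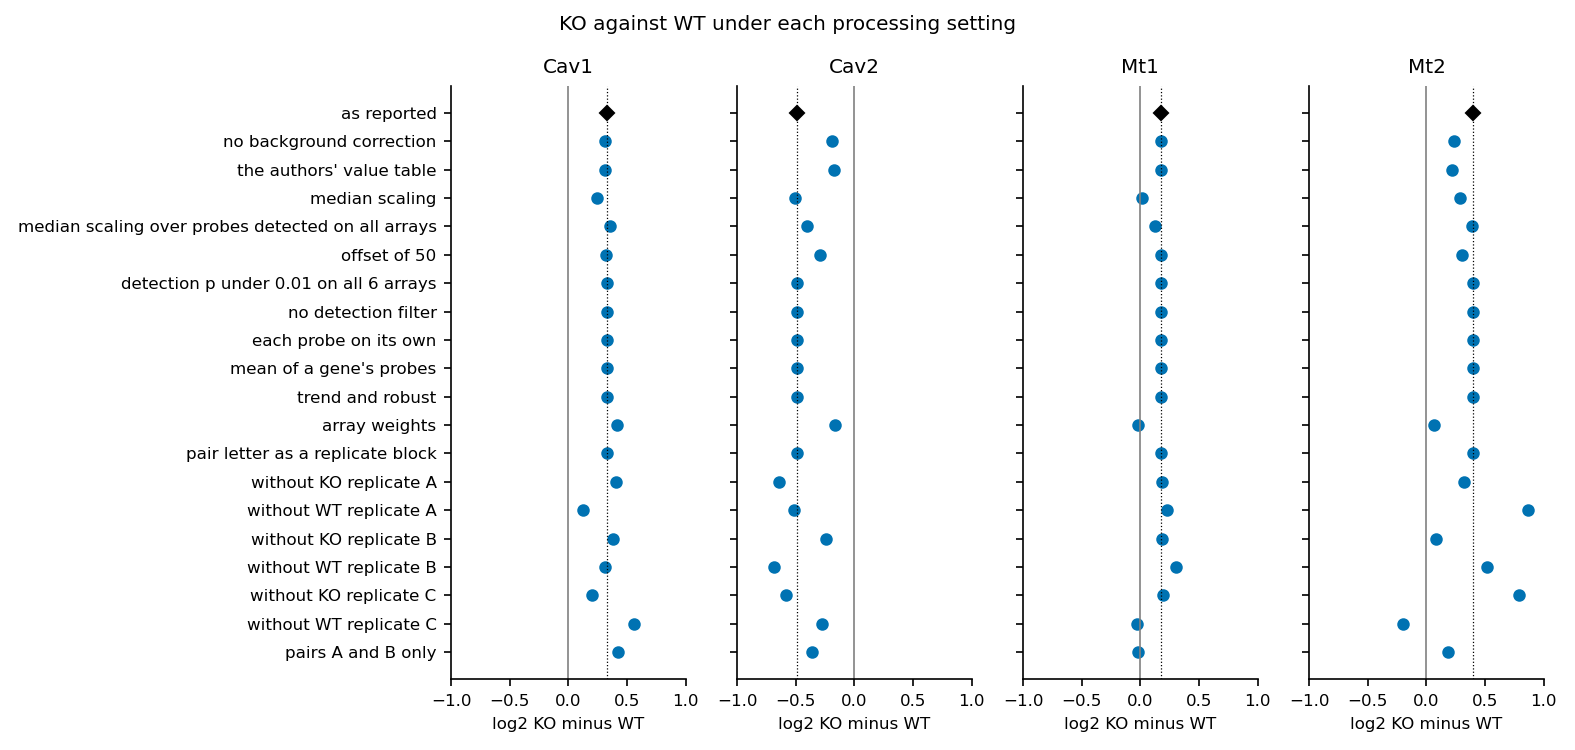
Log2 difference of KO minus WT (x axis) for Cav1, Cav2, Mt1 and Mt2 under the reported and 19 other settings (y axis). Cav1 stays above 0 and Cav2 below 0 in each setting shown, between 0.13 and 0.56 and between -0.68 and -0.17, while Mt1 and Mt2 cross 0 without WT replicate C.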

How the data were processed

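Per the labels' protocols, total RNA was labelled as biotinylated cRNA. The deposited intensity values are probe brightness per array without normalisation, and each has a deposited detection p-value, per the file headers. The authors' deposited value table is on a log2 scale and holds the same sorted values in each column (largest gap 0.00057), as quantile normalisation gives. The submitters' processing notes name GenomeStudio and lumi without a version or role.

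Values were normalised with neqc of limma 3.58.1 (R 4.3.3), which corrects background, adds an offset of 16, applies quantiles and takes log2. Probes with a detection p under 0.05 on 3 or more arrays were tested (17920 probes). The spread was moderated over these probes by lmFit and eBayes, a gene was its brightest tested probe, and p-values were adjusted over 10419 genes by the Benjamini-Hochberg method (threshold 0.05, two-sided). Symbols came from the platform annotation, updated by a RefSeq gene table of GRCm38.p6 that also gave gene order. Of 45281 probes 34885 had 1 symbol, 18 several and 10378 none here. The number of arrays limits the precision. Signed differences are KO minus WT.

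Cultures were paired per the labels, and deviations from the group means correlated between the arrays of a letter (0.33 for A, 0.48 for B, 0.72 for C). The letters were therefore taken to pair the samples, and a fit with the letter as a replicate block was tried. Unless the block is named, SEs, intervals and p-values come from the fit without the letter and include the spread between pairs. Named list genes had an unadjusted p under 0.05 (up to 4 per list) or were the 2 with the smallest p, beside genes named for their role, neighbours and the 3 closest genes of each member. The remaining list genes given as values were chosen after their values were seen. Some neighbouring and list genes are not reported here. Members and lists were chosen with earlier results of these data known.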

Additional observations from a re-analysis of the deposited data

How the results depend on the processing

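Cav1 was higher and Cav2 lower in KO under all 19 alternatives, and neither was called in any of them (lowest limma adjusted p 0.498 and 0.536). Leaving out 1 array gave 0.13 to 0.56 for Cav1, -0.68 to -0.24 for Cav2, -0.03 to 0.30 for Mt1, -0.20 to 0.86 for Mt2 and 0.20 to 0.33 for Brca1. Mt1 was lower in KO with array weights (-0.024), in pairs A and B only (-0.019) and without WT replicate C (-0.027), and Mt2 was lower without WT replicate C (-0.20). With a replicate block for the pair letter, the SE was 0.16 for Cav1, 0.18 for Cav2, 0.18 for Mt1 and 0.26 for Mt2. In that fit Cav2 had an unadjusted p of 0.0275 and an adjusted p of 0.536 in limma. With the block 904 genes in place of 338 had an unadjusted p under 0.05, and it changed no call of a member or of Kdm5b. The Brca1 difference was 0.11 without background correction, 0.10 on the authors' deposited value table, 0.10 with an offset of 50 and 0.38 with arrays scaled to the median of probes detected on all arrays, a setting chosen after seeing the data.

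The 3 genes called became 1 without background correction, 1 on the authors' table, 1 with an offset of 50, 0 with detection p under 0.01 on all 6 arrays (limma, 237 of 8010 genes at an unadjusted p under 0.05; Kdm5b is not tested there) and 1 to 2 on leaving out 1 array. Kdm5b was no longer called without background correction (-0.97, adjusted p = 0.125 in limma), on the authors' table (-0.89, adjusted p = 0.153) and with an offset of 50 (-1.45, adjusted p = 0.0778), and leaving out 1 array gave -2.57 to -2.34. The counts at an unadjusted p under 0.05 ran from 159 to 1158 over the alternatives. Scaling each array to its median moved the median of all genes to -0.09 and the split of these calls to 61 higher and 261 lower, against 199 higher and 140 lower with the detected-probe median and 155 higher and 183 lower as reported.

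For adipocyte genes, no background correction gave a median of -0.10, the authors' values -0.093, an offset of 50 -0.16, the stricter filter -0.58 and no filter -0.039, and it was -0.11 in pairs A and B only and -0.54 to -0.11 on leaving out 1 array. For macrophage genes, no background correction gave 0.028, the authors' values 0.026 and the detected-probe median 0.16, and the range was 0.038 to 0.21 on leaving out 1 array. The zinc and copper median was -0.080 with median scaling, 0.060 with array weights and -0.023 to 0.065 on leaving out 1 array. On leaving out 1 array the caveola median was -0.0030 to 0.21, the oxidative stress median -0.16 to 0.45, the basal median -0.25 to 0.26, the BRCA1 partner median -0.026 to 0.24, the repair median 0.052 to 0.21, the glucocorticoid median -0.017 to 0.17, the proliferation median 0.46 to 1.48 and the endothelial median 0.040 to 0.66. The glucocorticoid median was also below 0 with median scaling (-0.036) and array weights (-0.0053). The cause of these changes was not tested. Signal over background limits Brca1, since no probe of it passed the detection filter, and the dim Cav2 probe, and each group holds 3 cultures.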
